A study of Mus musculus with 2 samples.

Results

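Xcl1, Xcr1, Flt3l and Flt3 form 2 ligand and receptor pairs that link lymphocytes to dendritic cells (DCs). They are 4 of the 32285 genes counted in both libraries and were chosen by symbol, though with earlier results of these data known. The cells were CD45+ immune cells, sorted from tumors that the mouse colon carcinoma line MC38 had formed in wild-type (WT) mice, and were profiled by droplet single-cell RNA sequencing. The Control library came from tumors that were not irradiated, and the IR library from tumors collected 4 days after 1 dose of 20 Gy. Each library pooled several tumors and there was 1 library per group, so no test was possible and every difference below has no replicate check. The sample labels name CD45+CD11b+Ly6Chi cells, whereas the protocol describes a sort on CD45 alone, and T and NK cells were present in both libraries.

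Xcl1 encodes a chemokine made by NK cells and activated CD8 T cells. Xcr1 encodes its receptor, which in the mouse marks conventional type 1 DCs (cDC1), the DCs best known for presenting tumor antigen to CD8 T cells. Flt3l encodes the growth factor that drives DC development and survival. Flt3 encodes its receptor, a tyrosine kinase carried by DC precursors and by most mature DCs.

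All 4 genes lie on the minus strand of the GRCm38 genome, with positions taken here from GENCODE vM21. Xcl1 (ENSMUSG00000026573) spans chromosome 1 from 164931644 to 164935527. Xcr1 (ENSMUSG00000060509) spans chromosome 9 from 123852315 to 123862029. Flt3l (ENSMUSG00000110206) spans chromosome 7 from 45129788 to 45136432. Flt3 (ENSMUSG00000042817) spans chromosome 5 from 147330741 to 147400489. Gene models on the opposite strand overlap Xcl1 (Gm20743, 0 UMIs in the Control NK gate and 1 in the IR NK gate) and Flt3 (Gm26597, 3 and 9 UMIs in the DC gates). UMIs (unique molecular identifiers) count captured RNA molecules. A model on the same strand, Gm45713, overlaps Flt3l and has no row of its own in the count tables, so reads of the pair cannot be told apart.

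After filtering, 4679 Control and 3410 IR cells remained, with a median of 7302 and 8268.5 UMIs per cell, and 6 of their barcodes occurred in both libraries. Cells were placed in gates by raw UMIs of other genes. NK cells were gated on Ncr1, Klrb1c and Klre1, and T cells on Cd3d, Cd3e, Cd3g and Trac. The DC gates used Clec9a, Cadm1, Snx22, Tlr3 and Gcsam for cDC1, Cd209a with Clec10a, Zbtb46 and Kmo, Ccr7 with Fscn1, Cacnb3 and Apol7c for migratory DCs, and Siglech with Cox6a2 and Klk1 for plasmacytoid DCs (pDCs). None of the 4 genes was used. Of 6 further markers per class, 6 were highest in their own gate for NK cells, T cells, migratory DCs and macrophages, 5 for pDCs and 4 for cDC1. None of the 6 cDC2 markers was highest in the Cd209a gate, which is therefore named by its rule. The gates left 1597 Control cells (34.1%) and 1098 IR cells (32.2%) ungated. Of these, 589 and 376 carried at least 2 UMIs of the T or NK genes, and 582 and 373 of those exceeded the limit on C1q or MHC class II UMIs that the T and NK gates set.

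Levels are given as CPM, the standard scaled rate of a gene's UMIs among all UMIs of the cells in a gate. Intervals are exact Poisson 95% intervals for levels, exact conditional intervals for log2 ratios and exact Clopper-Pearson intervals for shares. They cover counting error only, and neither variation between animals nor between libraries. Intervals on UMIs treat each UMI as an independent draw and so leave out variation between cells. They are too narrow where a few cells hold much of a gene, as for Xcl1, and intervals that lie apart are to be read with that limit. In summed counts, fewer cells that make a gene and less RNA per cell cannot be told apart, so shares of cells are given as well.

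Xcl1, the chemokine, was concentrated in NK and T cells in both libraries and was lower in both in the IR library. In the NK gate it reached 1564 CPM (interval 1516 to 1613, 3982 UMIs in 319 cells) in Control. In the IR library it reached 933 CPM (904 to 963, 3872 UMIs in 399 cells). The log2 ratio, IR over Control, was -0.74 (-0.81 to -0.68), and the 2 intervals did not overlap. The T gate differed more, with 893 CPM (856 to 930) in Control, 183 CPM (167 to 200) in IR and a log2 ratio of -2.28 (-2.43 to -2.14). The intervals of these 2 ratios did not overlap, although no test of the difference could be run.

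**Figure D1:**
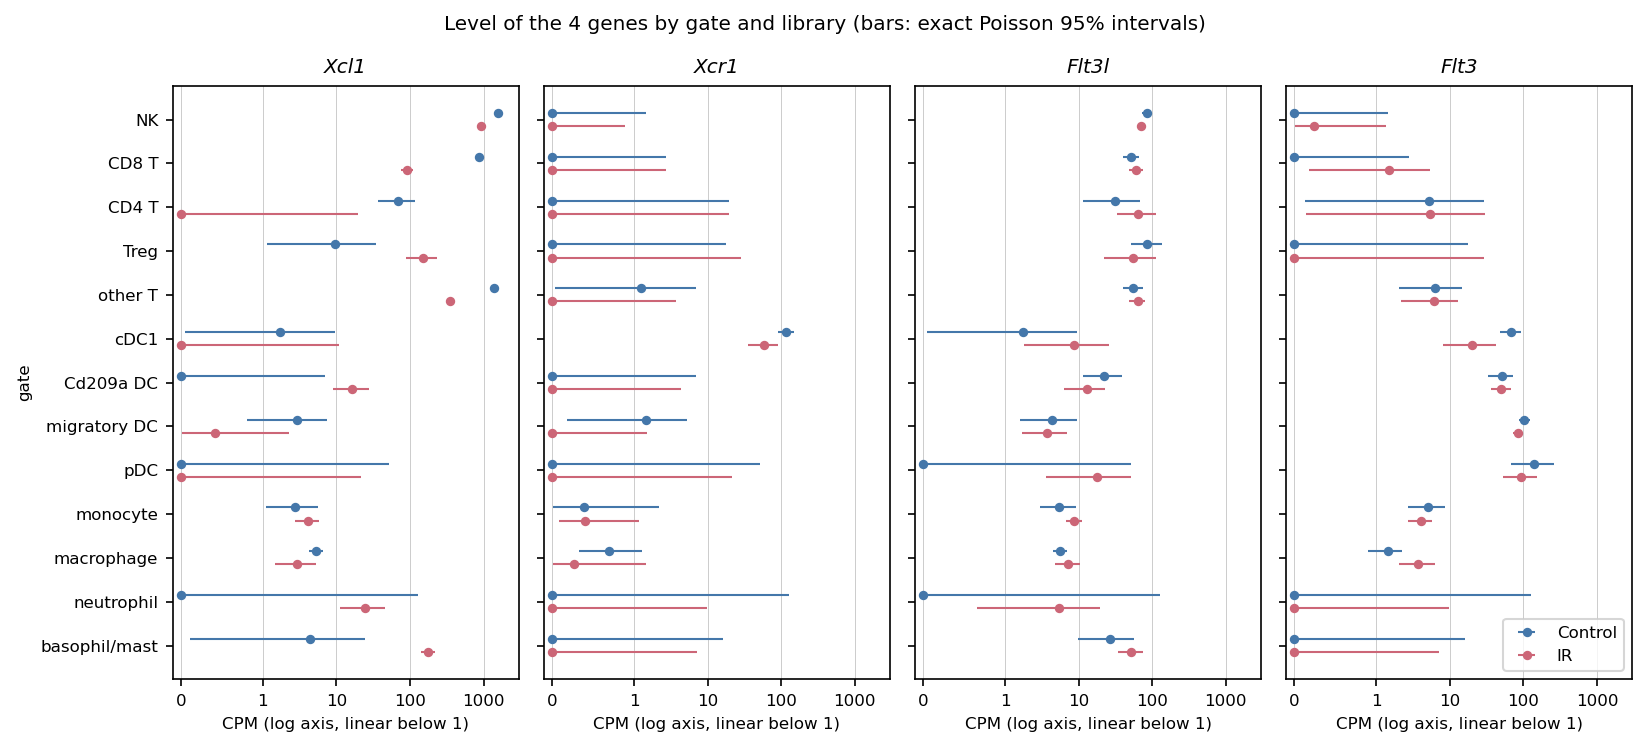
Level of each gene (CPM on a log axis that is linear below 1) by gate, 1 panel per gene, with a point for each library and exact Poisson 95% intervals as bars. Xcl1 was high in NK, CD8 T and other T cells, Xcr1 in the cDC1 gate (118 CPM in Control, 58.2 in IR), Flt3l in all NK and T gates, and Flt3 in the DC gates.

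Within the T gate the level differed between subsets. CD8 T cells, gated on Cd8a or Cd8b1, held 863 CPM (814 to 914, 1151 UMIs in 201 cells) in Control and 91.1 CPM (75.7 to 109, 123 UMIs in 142 cells) in IR. That log2 ratio was -3.24 (-3.52 to -2.97). T cells in which neither Cd4, Cd8 nor Foxp3 gave a clear subset held 1374 CPM (1293 to 1458) in Control. Their IR level was 347 CPM (312 to 386), a log2 ratio of -1.98 (-2.16 to -1.81). The summed level of this group was above that of the CD8 T gate in both libraries, but 5 of its 148 Control cells held 54.9% of its Xcl1 UMIs. The thinned share of cells with Xcl1 in Control was 28.1% (21.1% to 36.1%) here and 25.7% (19.8% to 32.3%) in CD8 T cells, with intervals that overlapped.

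CD4 and regulatory T cells held little Xcl1. CD4 T cells had 13 UMIs in 46 Control cells and 0 in 30 IR cells, where 3 counts would be 16.1 CPM and the Poisson interval reached 19.8 CPM. Regulatory T cells, gated on Foxp3, had 2 UMIs in 46 Control cells and 19 in 18 IR cells, and all 19 came from 1 cell. No direction is read from either subset.

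NK cells were split by genes of 2 known states. One group was led by Gzmc to Gzmg and Itga1 (Gzmc NK cells), the other by Ly49 receptor genes, S1pr5, Itgam and Cma1 (Ly49 NK cells). Gzmc NK cells held 1766 CPM of Xcl1 (1708 to 1826) in Control, against 1123 CPM (1084 to 1163) in IR. Ly49 NK cells held 679 CPM (612 to 752) in Control, against 508 CPM (470 to 550) in IR. In summed level Gzmc NK cells were above Ly49 NK cells in each library, and both groups were lower in IR. Their log2 ratios were -0.65 (-0.72 to -0.58) and -0.42 (-0.61 to -0.23), the second of which is under 1.5-fold. Ly49 NK cells made up 112 of the 319 Control NK cells and 197 of the 399 IR NK cells, so the NK gate as a whole also held more cells of the group with less Xcl1.

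The share of cells with Xcl1 moved the same way. Each cell was thinned to 1000 UMIs to set depth equal, and the mean over all ways to thin is given. At least 1 UMI was found in 48.1% (42.5% to 53.7%) of Control and 31.7% (27.2% to 36.5%) of IR NK cells, a difference of -16.4 percentage points (-23.6 to -9.00). Without thinning the shares were 74.3% and 58.1%, at median depths of 7134 and 7513 UMIs. Gzmc NK cells had a thinned share of 53.6% (46.4% to 60.7%) in Control and 36.0% (29.2% to 43.2%) in IR, with intervals apart. For Ly49 NK cells it was 36.8% (27.9% to 46.4%) in Control and 27.5% (21.4% to 34.3%) in IR, and these intervals overlapped. In CD8 T cells the thinned share was 25.7% (19.8% to 32.3%) in Control and 6.22% (2.86% to 11.5%) in IR, and 45.8% and 19.7% without thinning. Macrophages, which should lack the gene, gave 0.775% and 0.68% at thinned depth and 3.55% and 2.78% without thinning, at median depths of 8395.5 and 9003.5 UMIs. The lymphocyte shares were thus above this background in both libraries.

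A few cells carried much of the Xcl1. In the NK gate the 5 highest cells held 24.2% of the UMIs in Control and 27.9% in IR, and the highest single cell had 436 and 415 UMIs. Among NK cells with Xcl1, the mean was 16.8 UMIs per cell in Control and 16.7 in IR. In CD8 T cells that mean was 12.5 in Control and 4.39 in IR, and the highest cell had 149 and 16 UMIs. Within the NK subsets it was 21.9 and 28.2 for Gzmc NK cells and 5.26 and 5.64 for Ly49 NK cells. These means are not set to equal depth, and the median depth was 8900 and 13246 UMIs for Gzmc NK cells, 3704.5 and 5039 for Ly49 NK cells and 5750 and 7593 for CD8 T cells. In CD8 T cells the mean was thus lower in IR at a higher depth, and no comparison is drawn for NK cells.

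**Figure D2:**
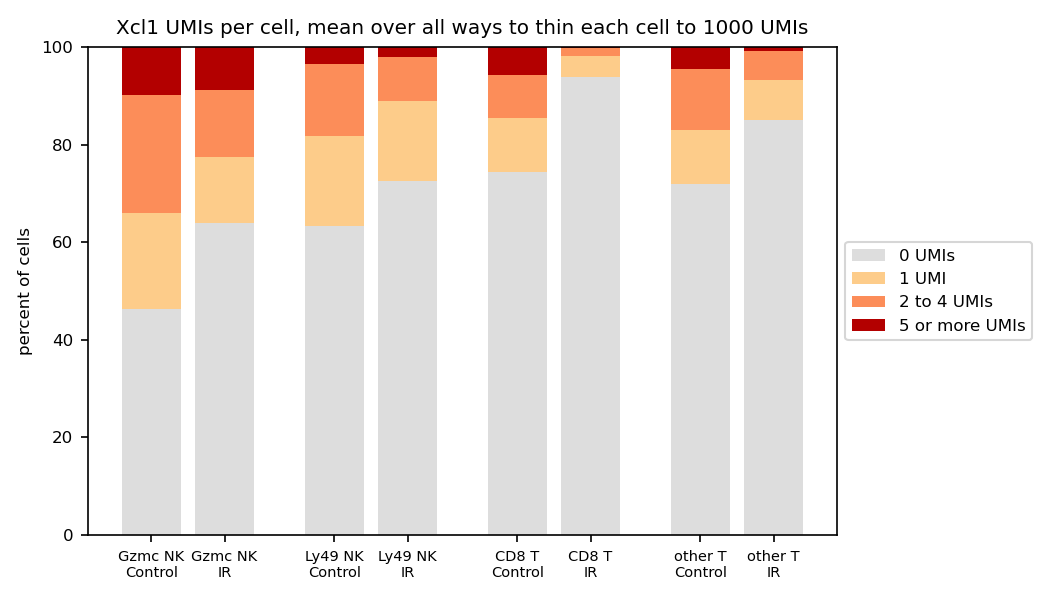
Percent of cells with 0, 1, 2 to 4 or 5 and more Xcl1 UMIs, as the mean over all ways to thin each cell to 1000 UMIs, for 2 NK and 2 T groups in each library. Cells with 5 or more UMIs made up 9.80% of Control and 8.87% of IR Gzmc NK cells, and 5.66% of Control and 0.20% of IR CD8 T cells.

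Where the ligand RNA sat in the library as a whole shifted toward NK cells. Kept cells held 7981 Xcl1 UMIs in Control and 5659 in IR. The NK gate held 49.9% of them (48.8% to 51.0%) in Control and 68.4% (67.2% to 69.6%) in IR, a gain of 18.5 points (16.9 to 20.2). The T gate held 28.3% (27.3% to 29.3%) and 8.62% (7.90% to 9.39%). NK cells themselves were 6.82% (6.11% to 7.58%) of kept Control cells and 11.7% (10.6% to 12.8%) of IR cells, a ratio of 1.72 (1.49 to 1.98), while the T cell share hardly differed (ratio 0.99, 0.86 to 1.14). Ungated cells held 20.7% and 20.2% of the Xcl1 UMIs, of which 1461 of 1652 in Control and 976 of 1141 in IR lay in barcodes with at least 2 T or NK UMIs.

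**Figure D3:**
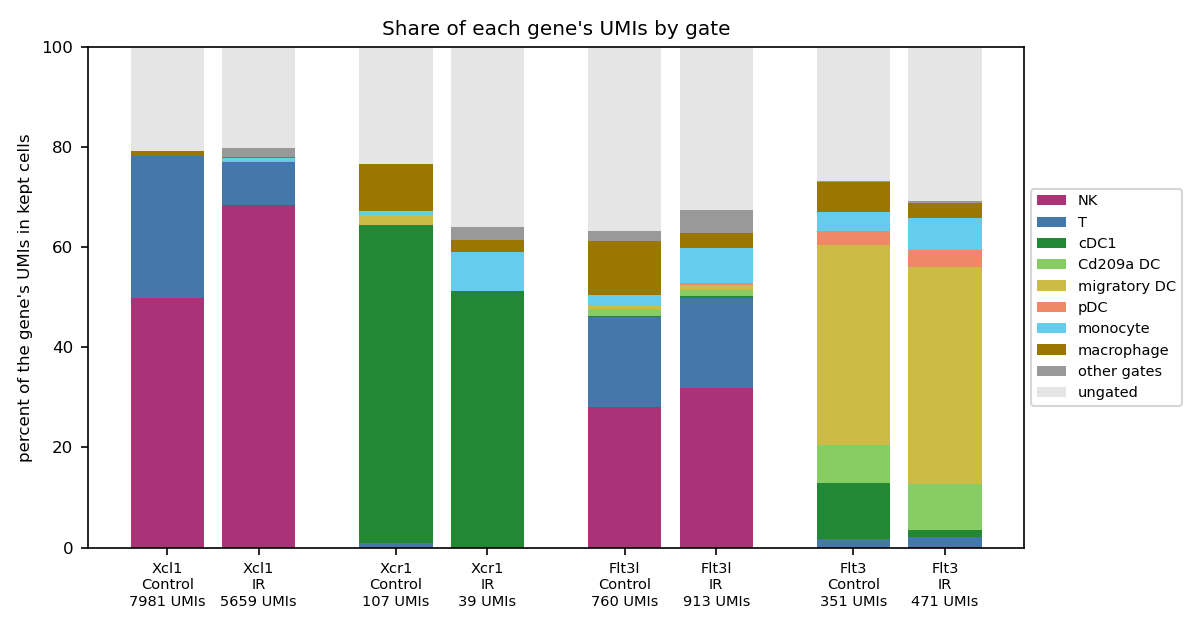
Percent of each gene's UMIs in kept cells by gate, 1 bar per gene and library, with the UMI total under each bar. The NK part of Xcl1 is 49.9% in Control and 68.4% in IR, and the ungated part of each gene lies between 20.2% and 36.7%.

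Other values move with these gates. Markers of monocytes, which are not used to gate T cells, summed to 588 CPM in Control CD8 T cells and 1471 CPM in IR CD8 T cells, and to 906 and 1127 CPM in NK cells, with all 6 detected in each. Markers of macrophages summed to 333 and 433 CPM in CD8 T cells and to 104 and 122 CPM in NK cells. Barcodes with at most 100 UMIs, which hold mostly free RNA, carried 267 CPM (253 to 281) of Xcl1 in Control and 273 CPM (257 to 289) in IR. The part of these in the Xcl1 differences was not tested, apart from a subtraction of free RNA given with the sensitivity of the results. In the IR basophil and mast cell gate, 88 of the 92 Xcl1 UMIs lay in 4 cells, and all 4 also had at least 2 UMIs of T or NK genes.

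Across all genes with at least 20 UMIs in the NK gate, 17% of 9500 differed by 1.5-fold or more either way, 3.06% were lower in IR by that much with intervals apart and 2.96% were higher. Of the 2 members counted there, Xcl1 and Flt3l, 1 was lower (Xcl1). In the T gate 18.6% of 9596 genes passed the fold either way, 2.01% were lower with intervals apart and 5.84% were higher, and 1 of the same 2 members was lower, again Xcl1. The median log2 ratio of all counted genes was -0.04 in the NK gate and -0.01 in the T gate.

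Genes of NK effector function and activation were read beside Xcl1, as a list of 30 of which 29 were counted in the NK gate. In IR 5 were higher and 3 lower by 1.5-fold with intervals apart, against 2.96% and 3.06% of all genes in that gate. The list median of 0.08 was close to that of all genes. The 3 genes of the lytic granule in the list were higher, of which Gzmb and Prf1 also served as markers in the check of the NK gate. Gzmb, encoding a granzyme, went from 1228 to 3851 CPM (log2 ratio 1.65), Gzma from 2813 to 5024 CPM (0.84), and Prf1, the pore-forming perforin, from 733 to 1224 CPM (0.74). The cytokine genes Tnf (7.46 to 18.1 CPM) and Csf2 (2.36 to 8.19 CPM) were higher from a low level. Lower were Cd226, an activating receptor (74.6 to 23.6 CPM, log2 ratio -1.66), the chemokine receptor Cxcr6 (33.0 to 14.7 CPM, -1.17), and Nr4a3, a transcription factor induced by receptor signaling (198 to 99.3 CPM). The chemokines Ccl3, Ccl4 and Ccl5, which NK cells often release with Xcl1, had log2 ratios of 0.28, 0.08 and -0.02. These 3 are named after their values were seen, and none of them was lower by the fold that Xcl1 passed. The mix of NK groups differed as well, with 112 of 319 Control and 197 of 399 IR cells in the Ly49 group. Its part in the list values was not tested.

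T cells showed another pattern. Among all genes of the T gate 5.84% were called higher and 2.01% lower. Of 20 factors that lymphocytes use to act on DCs, 15 were counted there, where 2 were higher, 5 lower, and the list median was -0.19. Lower were the chemokines Ccl1 (157 to 12.8 CPM, log2 ratio -3.62), Ccl4 (1329 to 561 CPM, -1.24) and Ccl3 (402 to 195 CPM, -1.04), and the cytokines Il13 (28 UMIs in Control and 4 in IR, -2.88) and Ifng (352 to 156 CPM, -1.17). Higher were Tnf (37.6 to 104 CPM, 1.47) and Csf2, the gene of GM-CSF (38 UMIs in Control and 82 in IR, 1.04). Among all genes of the NK gate 2.96% were called higher and 3.06% lower. Of the 20 factors 11 were counted in that gate, with 3 higher, 2 lower and a median of 0.10. There Tnf, Csf2 and Ccl1 (3.93 to 12.8 CPM) were higher and the lymphotoxin gene Ltb (183 to 101 CPM) and Tnfsf11, the gene of RANKL (28.3 to 16.6 CPM), were lower. Ccl1 was thus lower in T cells and higher, from a low level, in NK cells. The part of the mix of NK groups in these NK values was not tested. Regulatory T cells made up 46 of 441 Control and 18 of 318 IR cells of the T gate. Markers of monocytes summed there to 689 CPM in Control and 1562 CPM in IR. The part of these differences in the T values was not tested either.

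Xcr1, the receptor of Xcl1, lay mostly in the cDC1 gate, which held 63.6% of its 107 UMIs in Control and 51.3% of its 39 UMIs in IR, with 25 and 14 UMIs in ungated cells. The cDC1 gate held 34 Control cells (0.73%, 0.50% to 1.01%) and 19 IR cells (0.56%, 0.34% to 0.87%), a ratio of 0.77 (0.44 to 1.34) that does not separate the libraries. Xcr1 had 68 UMIs there in Control, or 118 CPM (91.5 to 149), in 13 of the 34 cells. In IR it had 20 UMIs, or 58.2 CPM (35.5 to 89.9), in 4 of the 19 cells. The log2 ratio was -1.02 (-1.82 to -0.28), with intervals apart by a small margin. The ratio was -0.19 after free RNA was subtracted, -0.58 as a mean of per-cell CPM and -0.46 in cells without Csf1r, and none of these 3 passes 1.5-fold. The subtraction acted mainly on the UMI total of the gate, not on its Xcr1 UMIs. Of these UMIs 5 cells held 73.5% in Control, and 1 cell held 10 of the 20 in IR.

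Xcr1 was near 0 elsewhere. It gave 0 UMIs in the NK gate, where 3 counts would be 1.18 CPM in Control and 0.72 CPM in IR. The Poisson intervals reached 1.45 and 0.89 CPM. It also gave 0 UMIs in the pDC and Cd209a DC gates of both libraries, 2 and 0 in migratory DCs, 10 and 1 in macrophages and 1 and 3 in monocytes. Cells with at least 2 Xcr1 UMIs numbered 20 in Control, of which 11 were in the cDC1 gate and 5 ungated, and 7 in IR, of which 3 were in the cDC1 gate and 3 ungated. Of the 20 Control cells 14 also had a Flt3 UMI, as did 3 of the 7 IR cells. Barcodes with at most 100 UMIs held 4 Xcr1 UMIs in each library.

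The cDC1 gate was mixed. Csf1r, the receptor of macrophages and monocytes, was detected in 14 of its 34 Control and 9 of its 19 IR cells. In the cells without Csf1r, a subset chosen after the values were seen, Xcr1 stood at 235 CPM (179 to 303) in 20 Control cells and 171 CPM (105 to 264) in 10 IR cells, and the intervals overlapped. In the cells with Csf1r it stood at 27.6 CPM and 0 UMIs. Summed markers of monocytes were 405 CPM in the Control and 1272 CPM in the IR cDC1 gate, and those of macrophages 709 and 925 CPM. Their part in the lower Xcr1 level was not tested.

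There were more NK gate cells for each cDC1 gate cell in IR. Kept cells held 9.38 NK gate cells per cDC1 gate cell in Control and 21 in IR. NK gate cells per cell of all DC gates were 1.38 and 1.57. The first of these ratios has no interval and rests on 34 and 19 cells of a mixed gate. The share of that gate in kept cells did not separate the libraries. The DC gates together held 231 Control and 254 IR cells, a share ratio of 1.51 (1.27 to 1.79). Over all DC gates Xcr1 stood at 27.5 CPM (21.5 to 34.8) in Control, and its IR level was 5.27 CPM (3.22 to 8.14). Migratory DCs, which hold almost no Xcr1, made up 126 of the 231 Control and 152 of the 254 IR cells.

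In the cDC1 gate 38.6% of 5185 genes differed by 1.5-fold either way, 5.88% were lower in IR with intervals apart and 7.23% were higher. Both members counted there, Xcr1 and Flt3, were lower, Xcr1 subject to the 3 settings above under which it did not pass the fold. Over all DC gates 20.1% of 10320 genes passed the fold either way, 2.81% were lower with intervals apart and 4.93% were higher, and of the 4 members counted 1 was lower, Xcr1. The median log2 ratio of all counted genes was -0.11 in the cDC1 gate and 0.03 over the DC gates.

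Genes tied to cDC1 identity and function moved both ways. Of 30 such genes 22 were counted in the cDC1 gate. Of these, 3 were higher and 4 lower, against 7.23% and 5.88% of all genes there, and the median was 0.05. Naaa (832 to 500 CPM, log2 ratio -0.73), Wdfy4, needed for cross-presentation (348 to 183 CPM, -0.93), and Itgae, the CD103 integrin chain (135 to 61.1 CPM, -1.15), were lower. These 3 were also among the 6 markers in the check of the cDC1 gate, which summed to 2219 CPM in Control and 1493 CPM in IR there. The part of the mix of cells in this gate in the list values was not tested. Relb, also a marker of migratory DCs, was lower on 22 UMIs in Control and 2 in IR, a log2 ratio of -2.71 (-5.84 to -0.69). The chemokine genes Cxcl10 (74.5 to 762 CPM, 3.36) and Ccl17 (81.4 to 419 CPM, 2.36) and the transcription factor gene Nfil3 (60.6 to 154 CPM, 1.35) were higher. The cDC1 transcription factor genes Irf8 and Batf3 had log2 ratios of -0.37 and -0.49, named after their values were seen, and did not pass.

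Over all DC gates the 30 genes were all counted. Of these, 4 were higher and 6 lower, against 4.93% and 2.81% of all genes there, and the median was 0.14. Naaa, Wdfy4 and Itgae were again lower, as were Cd24a and Rab7b and the cytokine gene Il12b (219 to 88.3 CPM, log2 ratio -1.31). The mix of DCs differed as well, with 34 of 231 Control and 19 of 254 IR cells in the cDC1 gate. Within that gate Cd24a and Rab7b had log2 ratios of -0.20 and 0.30 and were not called. Over all DC gates the summed markers of monocytes were 955 and 1338 CPM and those of pDCs 586 and 1060 CPM. The pDC gate itself held 11 of the 231 Control and 14 of the 254 IR cells. By gate the pDC markers summed to 263 and 751 CPM in cDC1, 526 and 672 in Cd209a DCs and 329 and 993 in migratory DCs. In the pDC gate they summed to 8575 and 4564 CPM, so this sum does not count pDCs. The part of the mix and of these marker levels in the list differences was not tested. Cxcl10 (127 to 1159 CPM, 3.19), the costimulatory genes Cd80 (56.6 to 91.2 CPM, 0.69) and Cd86 (140 to 218 CPM, 0.64), and Il15 (27.1 to 43.5 CPM, 0.68) were higher.

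**Figure D4:**
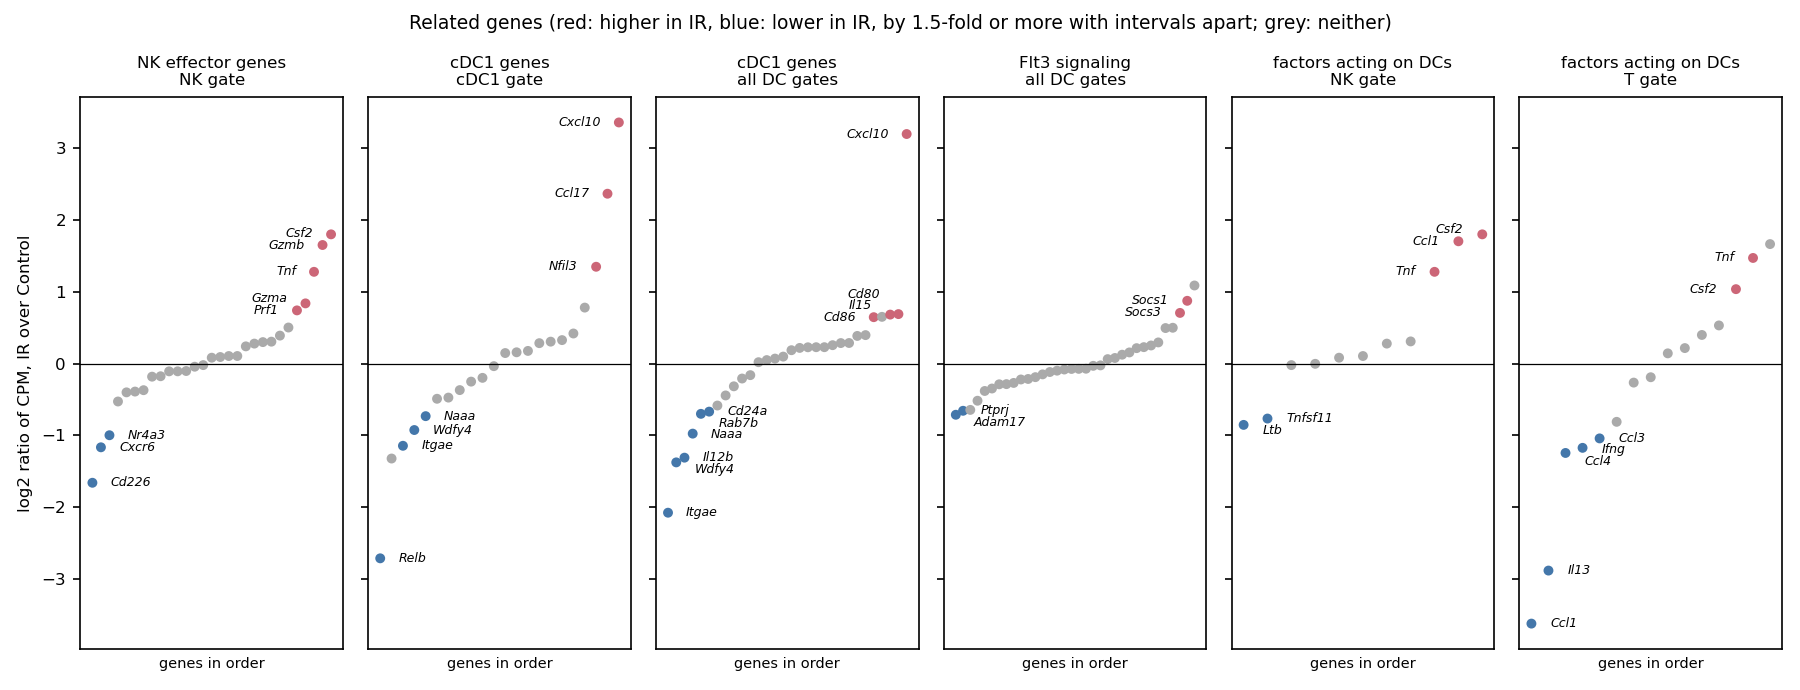
Log2 ratio of CPM, IR over Control, of each counted gene of the 4 lists, in order of the ratio, 1 panel per list and gate. Red and blue points are genes higher or lower in IR by 1.5-fold with intervals apart, with Cxcl10 at 3.36 in the cDC1 gate and Ccl1 at -3.62 in the T gate farthest from 0.

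Flt3l, the DC growth factor, was found at a modest level in NK and T cells and differed little between the libraries. In the NK gate it stood at 83.6 CPM (72.8 to 95.7, 213 UMIs) in Control and 70.4 CPM (62.5 to 78.9, 292 UMIs) in IR, a log2 ratio of -0.25 (-0.51 to 0.01). In the T gate it stood at 54.2 CPM (45.5 to 64.1, 137 UMIs) and 61.6 CPM (52.6 to 71.8, 164 UMIs), a log2 ratio of 0.18 (-0.15 to 0.52). The intervals overlapped in both gates.

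NK and T subsets mostly overlapped in Flt3l. Gzmc NK cells held 86.7 and 72.6 CPM and Ly49 NK cells 72.0 and 63.1 CPM, in Control and IR. CD8 T cells held 51.7 and 60.7 CPM, other T cells 55.5 and 63.2 CPM, and CD4 T cells 31.7 and 64.5 CPM on 6 and 12 UMIs. Regulatory T cells held 85.7 and 54.7 CPM on 18 and 7 UMIs. Within each library the Poisson intervals of these neighbours overlapped, apart from Gzmc NK cells in Control, whose interval (74.1 to 101) lay above those of CD8 T cells (40.2 to 65.5) and CD4 T cells (11.6 to 69.0).

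Myeloid gates held little Flt3l: macrophages 5.66 and 7.16 CPM, monocytes 5.44 and 8.63 CPM, and all DC gates 7.47 and 6.86 CPM. Basophils and mast cells held 26.3 CPM (9.66 to 57.3) and 51.8 CPM (34.2 to 75.4). Barcodes with at most 100 UMIs held 102 and 100 Flt3l UMIs, with intervals of 15.6 to 23.2 and 20.4 to 30.5 CPM, above the macrophage level. The thinned share of cells with Flt3l was 7.76% and 7.14% in NK cells and 0.589% and 0.681% in macrophages. The NK gate held 28.0% and 32.0% of the Flt3l UMIs of kept cells, the T gate 18.0% in each library, and ungated cells 36.7% and 32.6%.

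Flt3, the receptor of that growth factor, was highest in migratory DCs and pDCs among the gates. In migratory DCs it stood at 102.9 CPM (86.6 to 121, 140 UMIs) in Control and 84.2 CPM (73.1 to 96.6, 204 UMIs) in IR, a log2 ratio of -0.29 (-0.61 to 0.03). The few pDCs held 140 CPM (67.3 to 258, 10 UMIs) and 93.5 CPM (53.4 to 152, 16 UMIs). The Cd209a DC gate held 50.6 CPM (33.3 to 73.5) and 50.3 CPM (36.4 to 67.7), a log2 ratio of -0.01 (-0.74 to 0.74). Over all DC gates Flt3 was 84.9 CPM (74.0 to 97.1) and 71.2 CPM (63.0 to 80.2), a log2 ratio of -0.25 (-0.52 to 0.01). In order of level, pDCs and migratory DCs overlapped in both libraries.

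In the cDC1 gate Flt3 was lower in IR. It stood at 67.6 CPM (48.0 to 92.4) on 39 UMIs in Control and 20.4 CPM (8.19 to 42.0) on 7 UMIs in IR, a log2 ratio of -1.73 (-3.14 to -0.55). In the cells without Csf1r it stood at 147 CPM (104 to 203, 37 UMIs in 13 of 20 cells) and 51.3 CPM (18.8 to 112, 6 UMIs in 3 of 10 cells), and these intervals overlapped. The log2 ratio in these cells was -1.52, within the interval of the ratio of the whole gate. NK cells had 0 Flt3 UMIs in Control and 1 in IR. Macrophages held 1.45 CPM (0.90 to 2.22) and 3.71 CPM (2.03 to 6.23), intervals that overlapped.

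**Figure D5:**
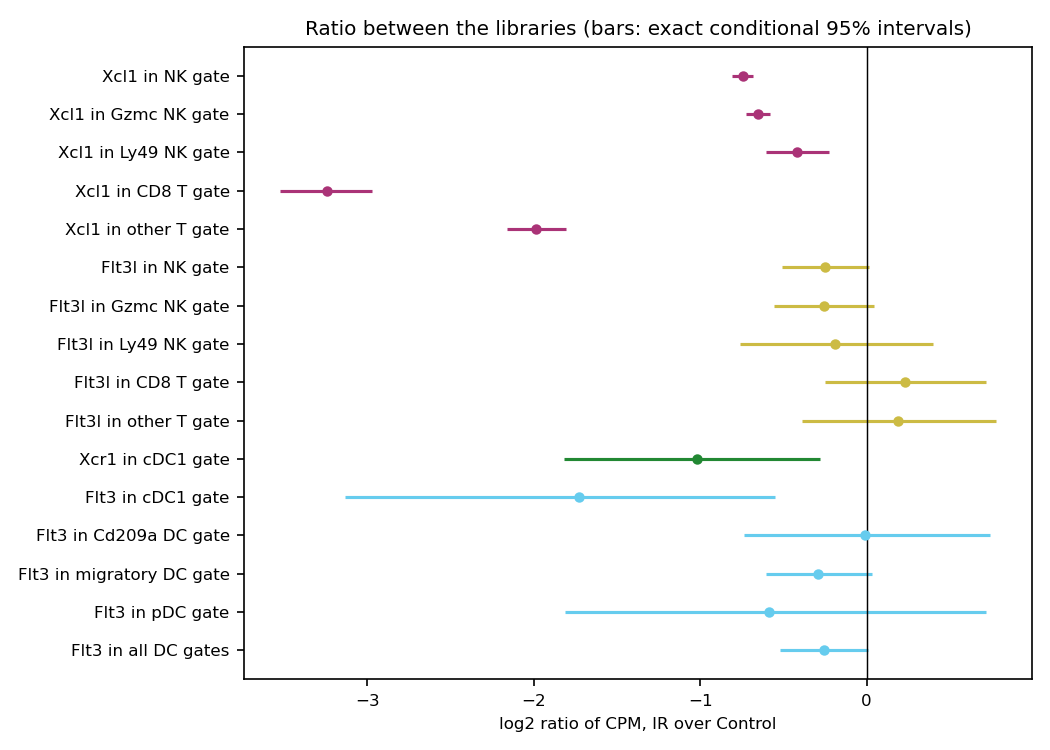
Log2 ratio of CPM, IR over Control, of the 4 genes in the gates that carry them, with exact conditional 95% intervals as bars and a line at 0. Xcl1 lies below 0 in all 5 NK and T gates shown, from -3.24 in CD8 T cells to -0.42 in Ly49 NK cells, Flt3l overlaps 0 in all 5, and Xcr1 and Flt3 lie below 0 in the cDC1 gate.

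Over all kept cells, whose mix of cell types also differed, Flt3l was 18.3 CPM (17.0 to 19.6) in the Control library, against 24.1 CPM (22.6 to 25.7) in IR. Flt3 was 8.45 CPM (7.59 to 9.38) and 12.4 CPM (11.3 to 13.6). Neither was higher in IR with intervals apart in the NK, T or summed DC gates. In ungated cells, which held 26.8% and 30.8% of its UMIs, Flt3 was higher in IR, with 5.91 CPM (4.78 to 7.24) against 9.97 CPM (8.41 to 11.7) and a log2 ratio of 0.75 (0.37 to 1.14). Xcl1 over all kept cells was 192 and 150 CPM, and Xcr1 2.58 and 1.03 CPM.

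Of 35 genes of ligand release and receptor signaling, 34 were counted over the DC gates, of which 2 were higher, 2 lower, and the median was -0.07. The same calls were made for 4.93% (higher) and 2.81% (lower) of all genes in these gates, so with 2 genes each way the list is not set apart. Socs1 (68.8 to 126 CPM, log2 ratio 0.87) and Socs3 (144 to 235 CPM, 0.70), feedback inhibitors of cytokine signaling, were higher. Adam17, a protease that releases membrane-bound ligands (48.0 to 29.3 CPM, -0.71), and Ptprj, a phosphatase that acts on Flt3 (72.0 to 45.6 CPM, -0.66), were lower. Stat3 and Stat5a, transcription factors of the pathway named after their values were seen, had log2 ratios of 0.23 and -0.12.

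The genes whose pattern was most like each member were named by the Pearson correlation of log2(CPM + 10) over 22 profiles, 11 gates in each of the 2 libraries, among 5750 genes. The profiles share libraries, so these values are a description with no p. Dapk2 (r = 0.95), Klre1 (0.93, a gene of the NK gate), Styk1 (0.91), Ctsw (0.91) and Ctla2b (0.90) were most like Xcl1. Sla2, Gm19585, Ctla2a and Skap1 were among those most like Flt3l (0.92 to 0.93), and Syngr2 (0.94), Tspan33, Wnt11, Adam23 and Slc27a3 (0.92) most like Flt3. The cDC1 gate fell below the minimum of 20 cells in IR and was left out of the profiles, so the genes found for Xcr1 (Rhox5, Dld, Rgmb, Tars and Psmc1, r at most 0.70) carry no information about its pattern.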

How the data were processed

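Droplet libraries (10x Chromium, 3' v3.1 chemistry) of 1 Control and 1 IR pool were analysed. The deposited values are unfiltered UMI counts that the authors made with Cell Ranger on mm10. The submitters' processing notes name release 6.0.1, while the matrix headers name release 4. Whether counting used strand is not given in the sources used here. The files held 1067746 and 990007 barcodes and 48593879 and 42406461 UMIs.

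Barcodes with at least 1000 UMIs, at least 200 genes and at most 25% mitochondrial UMIs were kept, and doublets were not removed in the main result (Scrublet in scanpy 1.11.5 was an alternative). Gates used at least 2 UMIs of the T or NK genes with C1q under 0.3% of UMIs and MHC class II under 20 UMIs. Counts were summed per gate and library and tested on simulated data with Python 3.11.15, numpy 2.4.6 and scipy 1.17.1. A gene with at least 20 UMIs was called different at 1.5-fold with Poisson intervals apart.

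Named genes were by rule the members, the list genes called in their gate and the 5 genes most like each member, apart from an item that is not reported here. A few list genes that were not called are named as well, chosen after their values were seen. Members, gates and lists were chosen with earlier results of these data known. Thinned shares first came from 1 random draw to 1000 UMIs. A second draw differed by several points, so the mean over all draws replaced them, a choice made after both draws were seen, and both stand among the alternatives. Their intervals treat the mean count as a count. The sources give no replicate, so no p-value is printed. Alternatives concerned depth and mitochondrial limits, doublets, gate limits, free RNA, scaling (TMM, edgeR 4.0.16, R 4.3.3), single high cells and Csf1r.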

Additional observations from a re-analysis of the deposited data

Results flagged for a closer look

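Flt3 in droplets without cells differed between the libraries. Barcodes with at most 100 UMIs held 30 Flt3 UMIs in Control, or 5.61 CPM (3.79 to 8.01), and 49 in IR, or 12.3 CPM (9.08 to 16.2), with intervals apart. These barcodes hold mostly free RNA and are otherwise given only as background.

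The log2 ratio of Flt3 had opposite signs in 2 gates, with a value of 1.35 (0.27 to 2.40) in macrophages on 21 and 14 UMIs, where the levels of the libraries overlapped, and of -1.73 (-3.14 to -0.55) in the cDC1 gate on 39 and 7 UMIs. The difference between the gates was not tested, and the macrophage level of 3.71 CPM in IR lay below that of the IR droplets without cells.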

How the results depend on the processing

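With 1 library per group no alternative carries a test, and a value counts as moved when it leaves the 95% counting interval of the reported one (for counts of genes, 1.5 times the reported count). Of 126 alternative values 113 stayed within it, 13 moved and none reversed a reported direction whose interval lay on one side of 0. Raising the minimum gate scores by 1 gave a log2 ratio of -0.85 for Xcl1 in NK cells and a gain of 12.4 points in the NK share of Xcl1, and removing the 6% of cells with the highest Scrublet scores gave a gain of 20.6 points. Subtracting free RNA, in an amount set by the C1q UMIs of each gate, gave -4.03 for Xcl1 in CD8 T cells and -0.19 for Xcr1 in the cDC1 gate, so the lower Xcr1 level depends on that step. Leaving out the 5 barcodes with most Xcl1 gave -3.65 in CD8 T cells, and the same step left 0 Xcr1 and 0 Flt3 UMIs in the IR cDC1 gate and gives no ratio there. The mean of per-cell CPM gave 0.075 for Flt3 over the DC gates, across 0 from the reported -0.25, whose interval also included 0. The last 2 steps were added after seeing the data, as were the cDC1 subset without Csf1r and the 2 single draws of the thinned NK share of Xcl1, which gave -12.6 and -17.6 points against the reported -16.4. Genes past 1.5-fold numbered 945, 1013 and 1197 in the NK, T and DC gates at 50 UMIs or more, and 344, 625 and 548 with 10 CPM added, against 1619, 1787 and 2078. The counts of genes were lower where fewer genes were counted or 10 CPM were added, and otherwise the cause was not tested. No paired analysis was possible because each group had 1 library. The small number of cells limits the cDC1 gate (34 and 19 cells) and the pDC gate (11 and 14 cells).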
